A study of Cricetiscus sungorus with 16 samples.

Results

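Kit signalling and the gap junctions of the ovarian follicle are described here through 4 genes: Kitl (Kit ligand, NM_013598), Kit (its receptor, NM_021099), Gja4 (connexin 37, NM_008120) and Gja1 (connexin 43, NM_010288). Their probes were found by the transcript identifier that the array files give for each spot. All 4 identifiers were on the array, among 33272 in all, with 5 probes among 41174, and 3 of the 4 (Kitl, Kit and Gja4) passed the detection filter and were tested among 20137 identifiers. Ovaries came from female Siberian hamsters, a species whose reproduction follows day length. The design of the series asks whether ovaries raised in short days (SD) and long days (LD) differed at 3 wk and at 8 wk, and what changed between these ages in each photoperiod.

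Each of the 4 groups held 4 hamsters, gestated and reared either in LD with 16 h of light or in SD with 10 h of light and killed at 3 wk or 8 wk of age. For the SD group at 8 wk the titles and treatment labels give 16 h beside the letters SD while the descriptions give 10 h, and the descriptions were followed. Both ovaries of a hamster were extracted together, so a value is the average of every cell type in them. Amplified, Cy3-labelled RNA of 1 hamster was read on each array, a 1-colour Agilent design for mouse transcripts.

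In the follicle, Kit ligand is made by granulosa cells and acts on Kit, a receptor tyrosine kinase on the oocyte and on theca cells. The signal runs through Ras and MAP kinases and through PI3-kinase, Akt and Foxo3, and is known for its part in the survival of germ cells and the start of follicle growth. Gap junctions are channels made of connexins: in rodents connexin 43 joins granulosa cells to each other, and connexin 37 joins the oocyte to the granulosa cells around it.

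The 4 slides carried 1 array of each group, and slide 1 stood apart from the others for several probes. Over the 16 arrays the 75th percentile was at an intensity between 269 and 1007. It lay between 269 and 370 on slide 1 and between 736 and 1007 on slides 2 to 4. Spots that the scanner software marked as outliers made up 1.79% to 2.95% on slide 1 arrays and at most 0.477% on the others. Slides 1 and 2 were each scanned on a separate day, and slides 3 and 4 on the same day. On an array 58.7% to 76.2% of spots were well above background. Hamsters that shared a slide tended to lie above or below their group means together, so the tests were run both without the slide and with the slide as a block, and each p-value is named by its fit. Since a group took one fixed position on every slide, position and group cannot be told apart. The probes are of mouse sequence, and how well each binds its hamster counterpart was not tested. Levels are log2 intensities relative to the array's 75th percentile, and a difference is one of log2 levels. Apart from the choice and naming of probes by brightness, no probe's level is set against that of another probe. Because the ovary was measured whole, fewer cells of a type and less RNA per cell cannot be told apart.

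Kitl was lower at 8 wk than at 3 wk on both of its probes in SD. On the brighter probe the SD difference was 2.45-fold and on the dimmer probe 1.59-fold, and both passed the threshold when slides were compared within themselves. Neither passed it without the slide in the fit. In LD both probes were also lower at 8 wk on every slide, by amounts that did not pass the threshold in either fit.

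Kitl was read by a brighter probe printed on 10 spots and a dimmer probe printed on 1 spot, both well above background on all 16 arrays. The names go by the mean level over all arrays. On slide 3 the brighter probe was the lower, with a slide mean of −3.83 against −3.62, and on slide 4 the means were alike (−3.54 and −3.53). On the brighter probe the 4 SD hamsters at 3 wk had levels of −1.27, −2.57, −3.16 and −2.74 on slides 1 to 4. The 4 SD hamsters at 8 wk had levels of −2.77, −4.19, −4.47 and −3.48. The 8-wk hamster was the lower of the pair on each slide, while across slides 1 value overlapped: the 8-wk hamster of slide 1 was above the 3-wk hamster of slide 3.

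In LD the brighter probe read −1.44, −2.46, −3.47 and −3.48 at 3 wk and −1.61, −2.59, −4.23 and −4.44 at 8 wk on slides 1 to 4. The groups overlapped widely, and slides 1 and 2 differed little between the ages. Mean levels at 3 wk were −2.71 ± 0.97 for LD and −2.44 ± 0.82 for SD, with −3.22 ± 1.36 for LD and −3.73 ± 0.76 for SD at 8 wk (standard deviation, n = 4). Slide accounted for 62.1% of this probe's variance, and its standard deviation within groups was 0.49 once the slide was taken out.

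**Figure D1:**
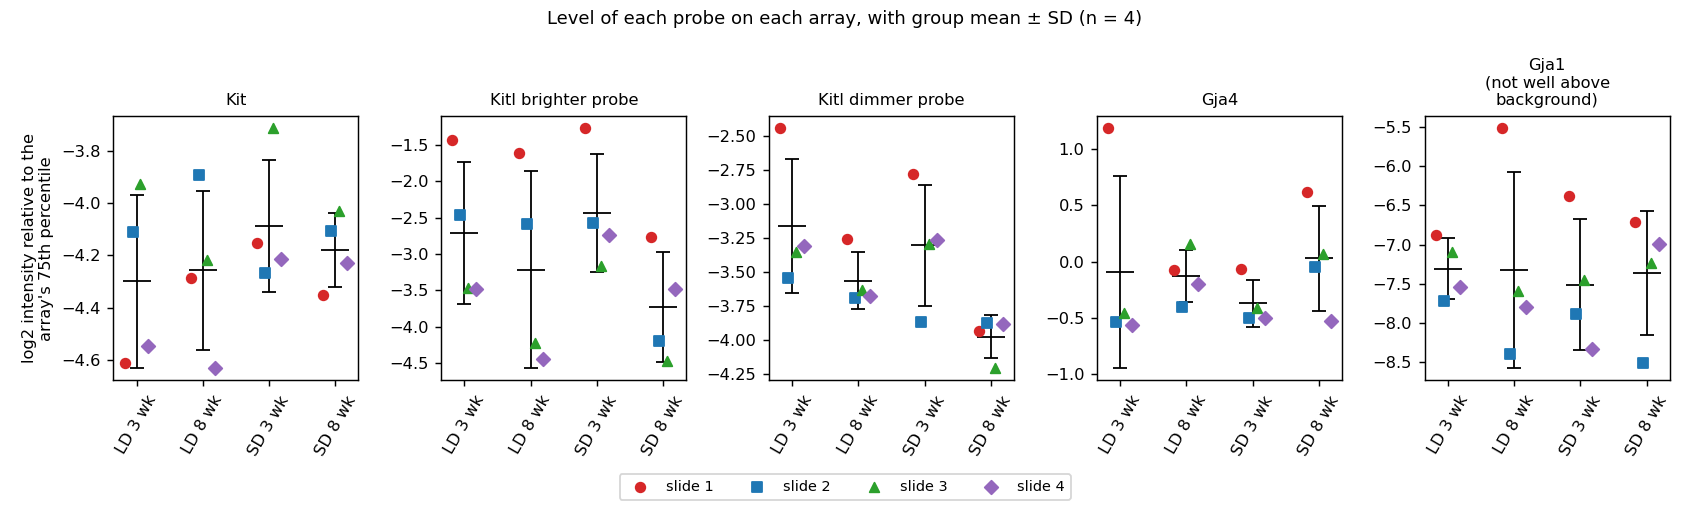
Level of each probe on each of the 16 arrays (log2 intensity relative to the array's 75th percentile), by group, with colours and symbols for the 4 slides and bars for the group mean ± standard deviation (n = 4). Each panel has its own vertical scale. On the brighter Kitl probe the array of slide 1 was the highest of each group, and on the dimmer Kitl probe all 4 SD arrays at 8 wk lay below the SD arrays at 3 wk and the LD arrays at 8 wk.

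The replicate spots of the brighter Kitl probe lay close together, with a median standard deviation of 0.12 log2 among the spots of an array. All 157 spots that were not outliers were well above background. The differences between slides were therefore much larger than the scatter of spots on one array.

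**Figure D2:**
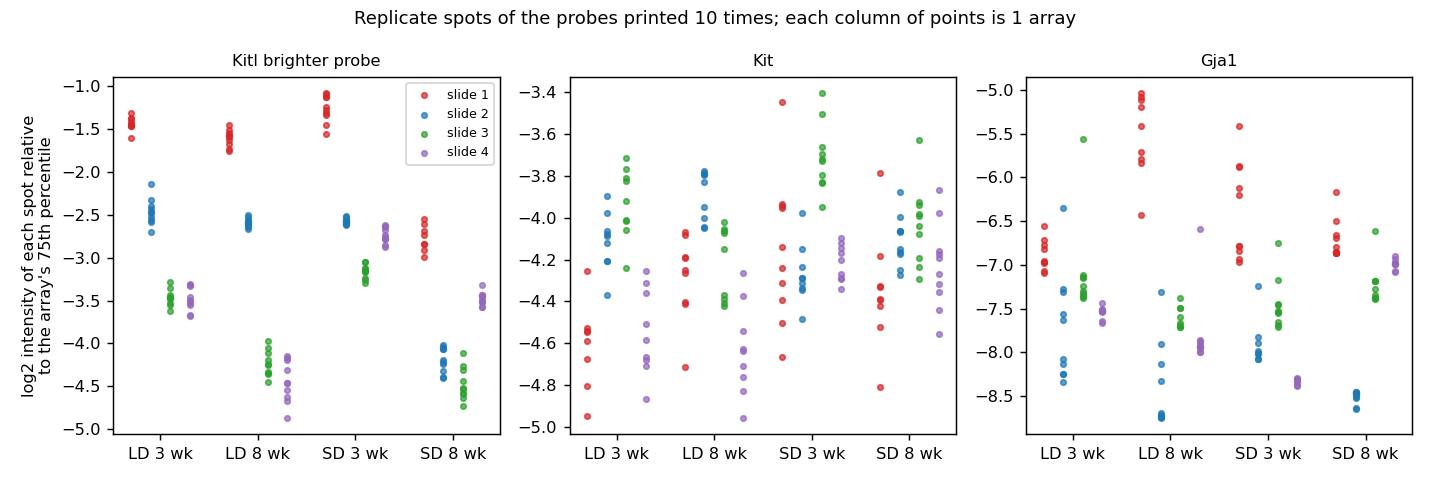
Level of every spot of the 3 probes printed 10 times, relative to the array's 75th percentile (log2), with 1 column of points per array, grouped by photoperiod and age and coloured by slide. The spots of the brighter Kitl probe form tight columns that step from slide to slide, those of Kit overlap across slides, and those of Gja1 lie at levels where no spot was well above background.

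The SD age difference of the brighter Kitl probe was −1.29 (SE 0.63) without the slide in the fit, with a limma adjusted p of 0.266. Blocking by slide gave −1.29 (SE 0.30, 95% interval −1.95 to −0.64), with a limma adjusted p of 0.00844. This was a fall to 0.408 of the 3-wk level, or 2.45-fold (95% interval 1.56 to 3.85). In this comparison 22.6% of all tested identifiers passed the threshold with slide as a block, 11.9% by being lower, and 9.16% passed without it. Kitl was the only one of the 3 tested members to pass in the fit with the block, and none passed without it.

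Within slides the SD difference of the brighter probe was −1.50, −1.62, −1.31 and −0.74 on slides 1 to 4. Of 19274 transcripts, 23.2% were likewise lower at 8 wk on all 4 slides in SD. With the block, the call was kept when any single array was left out and when slide 1 was left out. The difference then ran from −1.63 to −1.06 and the adjusted p from 0.00121 to 0.0477, the latter on slides 2, 3 and 4 alone.

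On the dimmer Kitl probe the SD hamsters read −2.78, −3.87, −3.30 and −3.26 at 3 wk and −3.93, −3.87, −4.21 and −3.88 at 8 wk. The 2 groups did not overlap, though on slide 2 they were almost equal (a difference of −0.0044), and 15.9% of probes had non-overlapping groups in this comparison. The difference was −0.67 (SE 0.25) without the slide, with a limma adjusted p of 0.124 over 24608 probes tested each on its own. In the fit with the block it was −0.67 (SE 0.18), with a limma adjusted p of 0.0164, where 22.6% of probes passed. The fall was 1.59-fold (95% interval 1.22 to 2.08).

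**Figure D3:**
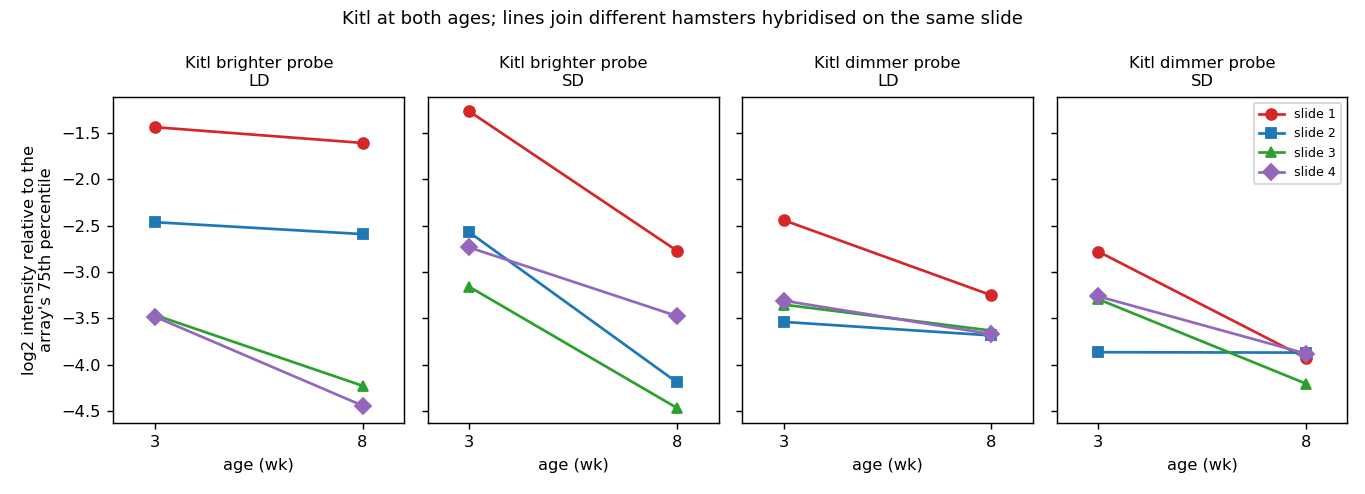
Level of the brighter and the dimmer Kitl probe (log2 relative to the array's 75th percentile) at 3 and 8 wk in LD and SD, where each line joins the 2 hamsters hybridised on the same slide; these are different animals. All lines fall from 3 to 8 wk in all 4 panels, steeply for the brighter probe in SD and with one line nearly level for the dimmer probe in SD.

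In LD the age difference of Kitl was −0.51 on the brighter probe, with a limma adjusted p of 0.876 without and 0.322 with slide as a block. The dimmer probe read −2.44, −3.54, −3.35 and −3.31 at 3 wk and −3.25, −3.69, −3.63 and −3.67 at 8 wk in LD. Its difference was −0.40, with a limma adjusted p of 0.580 without and 0.176 with the block. In LD 2.98% of all identifiers passed without the block and 11.5% with it. Within slides the LD differences ran from −0.96 to −0.13 on the brighter probe and from −0.81 to −0.15 on the dimmer probe, below 0 on 4 of 4 slides for each. The share of all transcripts lower on all 4 slides was computed for the SD age comparison only, so these LD counts have no background beside them.

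Whether Kitl fell more in SD than in LD was tested directly. The SD change minus the LD change was −0.79 on the brighter probe (SE 0.43 with slide as a block, 95% interval −1.71 to 0.14), with a limma adjusted p of 0.650. On the dimmer probe it was −0.27, with a limma adjusted p of 0.759 with the block. The difference between photoperiods in the age change thus did not pass the threshold, and its 95% interval with the block included 0 on both probes. On the brighter probe the difference was larger than its SE. Of all identifiers, 0.0596% passed this test without and 0.174% with the block.

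Between photoperiods at the same age, Kitl did not pass the threshold. At 3 wk the SD minus LD difference was 0.28 on the brighter probe and −0.14 on the dimmer probe, with limma adjusted p of 0.837 and 0.855 with slide as a block. No identifier on the array passed at 3 wk in limma, or 0% with and without the block, while 330 (1.64%) had an unadjusted p under 0.05 without the block and 1261 (6.26%) with it.

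At 8 wk the SD minus LD difference of Kitl was −0.51 on the brighter probe, with a limma adjusted p of 0.510 with slide as a block. The brighter probe was lower in SD on 3 of 4 slides and higher by 0.97 on slide 4. On the dimmer probe the difference was −0.41 (95% interval −0.80 to −0.03 with slide as a block), with a limma adjusted p of 0.312. The dimmer probe was lower in SD on 4 of 4 slides and its groups did not overlap, as for 4.06% of all probes at 8 wk. By the threshold, 0.958% of identifiers passed at 8 wk without and 2.56% with the block.

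Kit was near the lower end of what the array measured and showed no difference past the threshold in any comparison. Its probe was printed on 10 spots. Of 148 spots that were not outliers, 135 were well above background, and the probe counted as measured on 15 of 16 arrays. The exception was the LD hamster at 3 wk on slide 1, where 3 of 8 spots were well above background. Processed signals ran from 13.9 to 74.9.

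Kit read −4.61, −4.11, −3.93 and −4.55 at 3 wk in LD and −4.15, −4.27, −3.71 and −4.21 at 3 wk in SD on slides 1 to 4. At 8 wk it read −4.29, −3.89, −4.22 and −4.63 in LD and −4.35, −4.11, −4.03 and −4.23 in SD. All 4 groups overlapped. The means were −4.30 ± 0.33 and −4.09 ± 0.25 at 3 wk in LD and SD, and −4.26 ± 0.30 and −4.18 ± 0.14 at 8 wk (standard deviation, n = 4). Their order was therefore not resolved beyond the spread between hamsters.

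The Kit difference with age was 0.04 in LD and −0.09 in SD, and the photoperiod difference was 0.21 at 3 wk and 0.08 at 8 wk. The limma adjusted p with the block was 0.900, 0.730, 0.784 and 0.906 in that order. The 95% intervals with the block reached from −0.44 to 0.25 for the SD age difference and from −0.30 to 0.39 for the LD one. Age differences of Kit signal larger than 1.36-fold in SD or 1.31-fold in LD lay outside these intervals, a limit that holds for the mouse probe. Without the block the limits were wider, 1.47-fold in SD and 1.42-fold in LD. The test of the SD change minus the LD change gave −0.14 (95% interval −0.63 to 0.35), with a limma adjusted p of 0.873 with the block.

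**Figure D4:**
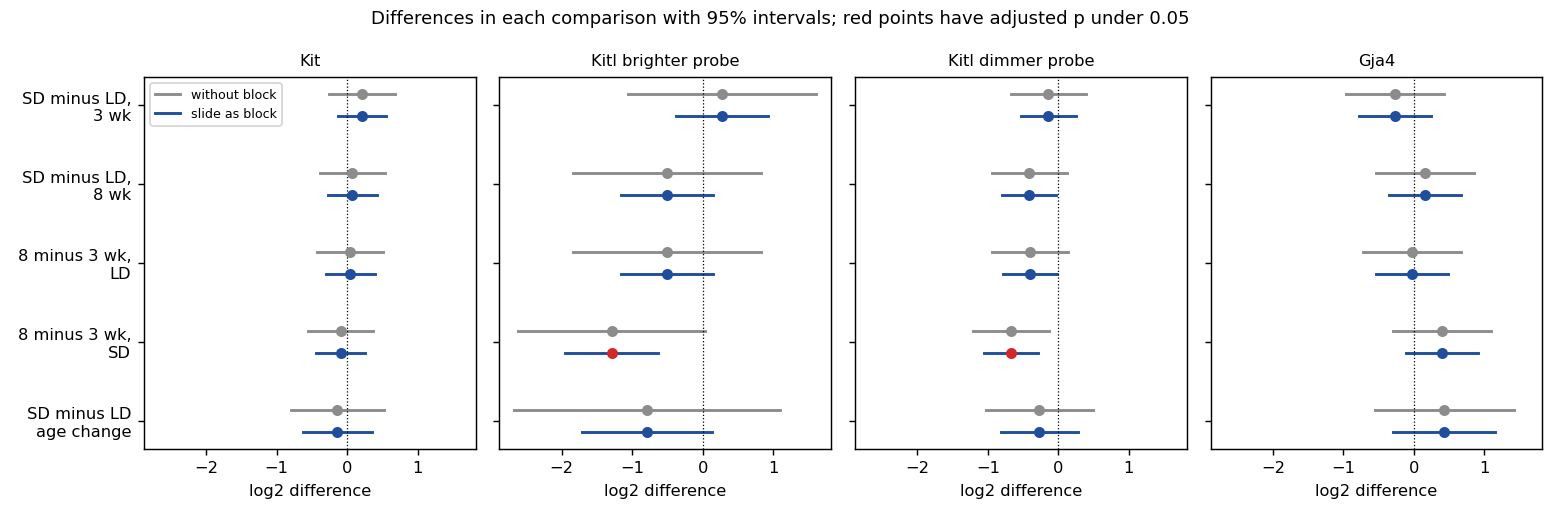
Differences in log2 level with 95% intervals for Kit, both Kitl probes and Gja4 in each comparison, without the slide (grey) and with slide as a block (blue); red points have an adjusted p under 0.05. The SD age differences of both Kitl probes, −1.29 and −0.67 with the block, are the red points, and each interval of Kit and Gja4 includes 0.

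Gja4, described above as the connexin between oocyte and granulosa cells, was measured on all 16 arrays by a single spot. Which cells of the whole ovary gave this signal was not tested. Gja4 had processed signals from 256 to 1111. It read 1.18, −0.54, −0.46 and −0.56 at 3 wk in LD and −0.06, −0.50, −0.41 and −0.50 at 3 wk in SD on slides 1 to 4. At 8 wk it read −0.07, −0.40, 0.16 and −0.20 in LD and 0.62, −0.05, 0.07 and −0.52 in SD. The groups overlapped in each comparison, and the LD hamster at 3 wk on slide 1 was far above the other 3 of its group.

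The Gja4 age difference in SD was 0.40 (95% interval −0.11 to 0.91 with slide as a block), with a limma adjusted p of 0.606 without and 0.266 with the block. The 8-wk hamster was the higher on 3 of 4 slides. In LD the age difference was −0.03, with a limma adjusted p of 0.951 with the block. Without the LD hamster at 3 wk on slide 1 the LD difference was 0.39 and its limma adjusted p 0.553 without the block. The direction in LD also turned without the LD hamster at 8 wk on slide 2 (0.057) and under other scalings. No direction was therefore resolved in LD. The oocyte markers given further on had median age differences of −1.35 in LD and −1.51 in SD without the block. Whether Gja4 followed the oocytes was not tested.

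The photoperiod difference of Gja4 was −0.27 at 3 wk and 0.15 at 8 wk, with limma adjusted p of 0.812 and 0.858 with slide as a block. Without that same LD array the 3-wk difference was 0.15. The SD change minus the LD change was 0.43 (95% interval −0.29 to 1.15 with the block), with a limma adjusted p of 0.725, and without slide 1 it was −0.07.

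Gja1, the connexin of granulosa cells, could not be measured. Its probe was printed on 10 spots per array, and 0 of 149 spots that were not outliers were well above background, so it was not tested. Processed signals ran from 2.13 to 6.96. The levels of −8.51 to −5.51 followed the slide, which accounted for 71.6% of their variance against 1.11% for the group. Whether the Gja1 transcript was absent from these ovaries or the mouse probe missed the hamster sequence was not tested. Granulosa markers were well measured on the same arrays, as given further on, but probes of other genes do not test the Gja1 probe.

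Around these members, 51 genes of the Kit pathway and of gap junctions were listed, of which 50 were on the array and 45 were tested. These symbols were paired with identifiers by hand from knowledge of RefSeq, since the files give identifiers without symbols, and the pairing could not be checked here. Counts rest on the brightest probe of each gene, and where a named gene had another tested probe that differed in size or call, its value without the block is given. No listed gene was higher in any comparison, and none differed between photoperiods at either age, with or without the block. With age, 1 of 45 was lower in LD and 2 of 45 in SD without the block, beside 1.78% and 4.38% of all identifiers. Once slides were blocked 4 of 45 were lower in LD and 11 of 45 in SD, beside 7.66% and 11.9%. The median difference of the 45 was −0.07 in LD and −0.04 in SD, beside −0.04 and 0.0012 over all identifiers.

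Among the proteins next to the receptor and the Ras and MAP kinases, 16 of 17 were tested. In LD none passed the threshold with or without the block. In SD none passed without it and 1 was lower with it. Map2k2, a kinase of this cascade and among the genes with the highest mean levels in the list, differed with age in SD by 0.25, with a limma adjusted p of 0.137 with the block. The list's medians were −0.04 in LD and 0.03 in SD, and the LD sign changed with the scaling.

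Of the PI3-kinase, Akt, Foxo and mTOR branch, all 15 listed genes were tested. Without the block 1 fell in SD, Foxo1 (NM_019739), a transcription factor that Akt holds out of the nucleus, with a difference of −0.70 (limma adjusted p 0.0399). This call was lost in 10 of 16 fits that left out 1 array (limma adjusted p 0.0164 to 0.147). A second probe of Foxo1 differed by −0.56 in SD and did not pass (limma adjusted p 0.341 without the block). Given the block, 4 fell in SD, among them Foxo1 (−0.70), Pik3r1, the regulatory subunit of PI3-kinase (−0.67), and Tsc1, which restrains mTOR (−0.43). Other probes of Pik3r1 differed by −0.50 and −0.55 in SD, and a second probe of Tsc1 by −0.33. These probes did not pass without the block (limma adjusted p 0.311, 0.215 and 0.240). In LD 1 fell with the block. Foxo3, the factor known for holding primordial follicles at rest, was dim and was measured on 14 of 16 arrays, with group means between −4.40 and −4.26.

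Of 5 genes listed for shedding of Kit ligand and transcription of Kit, 4 were on the array and 3 were tested. Lhx8 (NM_010713), a homeobox factor of young oocytes, had a mean level of 3.39 at 3 wk in both photoperiods, against 1.91 for LD and 2.09 for SD at 8 wk. On this brighter probe it did not pass without the block (limma adjusted p 0.0580 in LD and 0.0504 in SD). A second probe did so in SD, with a difference of −1.48 (limma adjusted p 0.00492 without the block), and not in LD, with −1.02 (limma adjusted p 0.108). With the block the brighter probe fell by 1.48 in LD and by 1.31 in SD (limma adjusted p 0.00818 and 0.00748).

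Among other connexins and their partners some fell with age. Of 14 listed, 11 were tested, and the median difference was −0.41 in LD and −0.28 in SD, below 0 under each scaling tried. Without the block 1 fell in each photoperiod, Gjc1 (connexin 45, NM_008122), with a difference of −0.73 in LD and −0.80 in SD (limma adjusted p 0.0304 and 0.0131). The LD call of Gjc1 was lost in 5 of 16 fits that left out 1 array, with limma adjusted p up to 0.0964, and the SD call in none of them. A second probe of Gjc1 differed by −0.67 in LD and was also lower in SD, and passed without the block in SD only (limma adjusted p 0.133 and 0.00952).

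With slide as a block 2 of the 11 fell in LD, Gjc1 (−0.73) and the channel protein Panx1 (−0.41), and 5 of the 11 fell in SD. Among those in SD were Gjb2 (−1.40), Gjb6 (−1.06) and Gjc1 (−0.90), all connexins. A second probe of Panx1 differed by −0.46 in LD and did not pass (limma adjusted p 0.163 without the block). A second probe of Gjb2 differed by −0.03 in SD, so its probes disagreed. None of these connexins differed past the threshold between photoperiods at 3 or 8 wk.

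**Figure D5:**
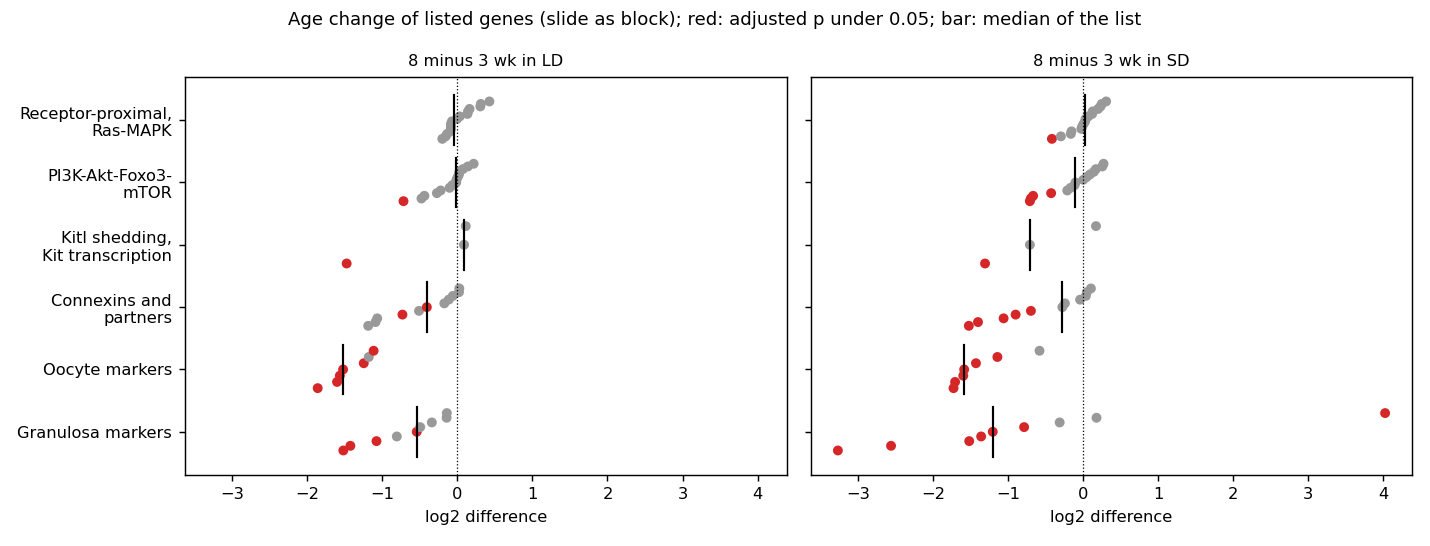
Difference in log2 level from 3 to 8 wk in LD and SD for each tested gene of the 4 lists around Kit signalling and gap junctions and for oocyte and granulosa markers, from the fit with slide as a block. Red points have an adjusted p under 0.05 and bars are list medians, which lie near 0 for the Ras-MAPK and PI3-kinase lists and at −1.52 and −1.59 for the oocyte markers.

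Some markers of the cell types in the ovary changed with age too. Of 11 listed oocyte markers 7 were tested, and without the block 4 fell in LD and 5 in SD, among them Gdf9 and Bmp15, growth factors of the oocyte. Their median differences were −1.35 in LD and −1.51 in SD. The fit with the block called 6 of 7 lower in each photoperiod. Of the calls without it, Zp2 in LD was lost in 6 and Gdf9 in SD in 1 of 16 fits that left out 1 array. A second probe of Zp2 differed by −1.55 in LD and did not pass, and by −2.08 in SD and passed (limma adjusted p 0.149 and 0.0200 without the block). The summed level of 4 oocyte markers measured on all arrays ran from 18.4 to 69.2 (LD) and 20.6 to 43.5 (SD) at 3 wk, and from 10.2 to 13.1 (LD) and 8.29 to 13.7 (SD) at 8 wk, in multiples of the array's 75th percentile. Figla, a factor of young oocytes, was well above background on 0 arrays.

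All 9 listed granulosa markers were tested. Without the block 3 fell in LD: Amh, the anti-Müllerian hormone of growing follicles (−1.52), Fst (−1.43) and Fshr, the FSH receptor (−1.08). In SD 4 fell, among them Inhbb, an inhibin subunit (−3.27), while Cyp19a1, the aromatase, rose by 4.02. Second probes of both genes passed in the same direction with smaller differences, −0.75 for Inhbb and 1.56 for Cyp19a1 (limma adjusted p 0.00529 and 0.0102 without the block). Among the calls without the block, those of Fshr and Fst in LD were lost in 6 and 5 of 16 fits that left out 1 array, and those of Amh and Fst in SD in 3 each. Blocked, 4 fell in LD, and 6 fell and 1 rose in SD. A summed level was taken over the 7 granulosa markers with a value on every array, which left out Cyp19a1 and Fst. At 3 wk it ran from 344 to 719 (LD) and 274 to 627 (SD). At 8 wk it ran from 279 to 543 (LD) and 132 to 255 (SD). This sum rests mostly on Inha and Inhbb, whose mean levels of 7.94 and 5.44 were the highest of the 9. It was lowest at 8 wk in SD, where Kitl, which granulosa cells make, was also lower than at 3 wk. By mean level Foxl2, Amh and Cyp19a1 were not lowest in that group, while the rest were, Nr5a2 only narrowly. Cyp19a1, which the sum leaves out, had its highest group mean there (5.03). The part of these markers in the Kitl result was not tested.

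At 8 wk Inhbb was lower in SD than in LD, with a difference of −3.14 (limma adjusted p 0.00537 without the block), a call kept when any single array was left out. Its second probe differed by −0.71 (limma adjusted p 0.0360 without the block), so the probes disagreed in size. Inhba, another inhibin subunit, differed by −4.26 (limma adjusted p 0.0483 without and 0.00385 with the block), and the call without the block was lost in 14 of 16 such fits. Kitl did not pass in this comparison, as given above.

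Of the theca, interstitial and luteal markers 6 of 7 were tested, and without the block 3 rose in SD, Cyp17a1, Star (1.90) and Hsd3b1 (1.41), enzymes and a transporter of steroid synthesis. These calls were lost in 12, 9 and 5 of 16 fits that left out 1 array. Star passed the detection filter only through the 8-wk groups, where it was higher. It was well above background on 3 of 4 arrays in each 3-wk group and on all 4 in each 8-wk group. Its mean levels at 3 wk were low, −4.18 in LD and −3.91 in SD. Mast cells also carry Kit, and of 5 mast cell markers 3 were tested and none passed in any comparison. Their summed level ran from 0.919 to 1.14 over all arrays. None of 6 markers of endothelium and smooth muscle passed on its brightest probe, while a second probe of Acta2, the actin of smooth muscle, was lower at 8 wk in SD by a difference of −1.16 (limma adjusted p 0.0265 without the block). Of 3 leukocyte markers 1, the complement gene C1qa, rose with age in LD by 1.64 (limma adjusted p 0.0456 without and 0.0312 with the block). The call without the block was lost in 10 of 16 fits that left out 1 array, and in SD the difference was 0.48.

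With slide means taken out, the levels of the members varied together to differing degrees over the 16 arrays. Pearson's r was 0.68 between the 2 Kitl probes, 0.44 between Kit and the brighter Kitl probe, −0.63 between Kit and Gja4 and −0.52 between that Kitl probe and Gja4. These are descriptions over arrays that share slides, groups and a common scaling. Among 18645 transcripts measured on all arrays, those most like Kitl were NM_177780 (r = 0.96) and NM_019472 (r = 0.96), which differed with age in SD by −1.42 and −1.05. Most like Kit were NM_027799 and NM_001081420 (r = 0.88 for both), and most like Gja4 were NM_053118 (r = 0.96) and BU937004 (r = 0.95). No symbols are given for these identifiers in the files.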

How the data were processed

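Total RNA from both ovaries of each of 16 hamsters was measured on 4 slides of 4 arrays. Per the file headers, the authors extracted spots with Agilent Feature Extraction 10.5.1.1. The deposited processed intensity is linear, background-corrected and not normalized between arrays. The deposited files also hold, as other columns, the scanner software's marks of outlying spots and of spots well above background. The deposited value table holds the same intensities (720284 of 720288 cells within 0.5%; column medians 26.6 to 91.5).

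Control spots and outlier spots were left out, spots of a probe were averaged, and log2 intensity minus each array's 75th percentile was used. A probe passed if, in some group, all 4 arrays had more than 0.5 of its spots well above background, and if at least 12 arrays, 2 per group and per slide, gave a value. An identifier was represented by its brightest probe, and the second Kitl probe came from a fit of each probe on its own. limma 3.58.1 in R 4.3.3 (lmFit, eBayes with an intensity trend) was fitted over all 16 arrays, with Benjamini-Hochberg adjustment over all identifiers and a threshold of 0.05. The fit was tested on simulated data. Same-slide arrays deviated together (median correlation 0.451, lowest 0.224, 24 pairs), against −0.113 between slides. The labels give no replicate numbers, and the slide's number is used.

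Hamsters were separate animals by their codes in the labels, and the number of arrays limits the precision. Members and lists were chosen with earlier results of these data known. Named are the members, at most 4 genes per list and comparison past the threshold by size (otherwise the 2 with the highest levels), and the 2 transcripts most like each member. Alternatives covered the scaling, filter, background correction, array weights, slide and single arrays. All p-values are two-sided. Some listed genes past the threshold are counted and not reported here by name. Sequences were not used here.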

Additional observations from a re-analysis of the deposited data

Results flagged for a closer look

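On the dimmer Kitl probe, the LD hamster at 8 wk on slide 1 had a level of −3.25, far above the other 3 of its group (−3.69, −3.63 and −3.67). For Gja4, the LD hamster at 3 wk on slide 1 had a level of 1.18, against −0.54, −0.46 and −0.56 in the other 3. Both arrays were on slide 1. By the criterion used, chance marks about 1 in 20 groups, and 20 groups of values (5 probes in 4 groups) were examined.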

How the results depend on the processing

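With slide as a block in place of the fit without it (the replicate block), Kitl at 8 against 3 wk in SD passed the threshold, so that 1 member was called in place of 0. The block changed no other call of a member, and no member was called in any other alternative without it. The count of identifiers called moved from 193 to 515 at 8 wk, from 601 to 2310 in LD, from 1844 to 4554 in SD and from 12 to 35 for the SD change minus the LD change. Array weights gave 2 at 3 wk, 335 at 8 wk, 1500 in LD, 3503 in SD and 32 for the last. Fitting only the groups compared gave 82 at 8 wk and 220 in LD. Quantile normalization gave 983 and kept outlier spots 923 in LD. Without slide 1 there were 1246 in LD, 2865 in SD and 4 for the SD change minus the LD change, for which normexp gave 21. Leaving out each array gave 0 to 1 at 3 wk, 118 to 241 at 8 wk, 232 to 675 in LD, 1141 to 2186 in SD and 6 to 49 for the last, with 0 members called. The cause of these shifts was not tested.

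Directions turned only for values that no fit called. Leaving out each array in turn moved Kitl from −0.11 to 0.70 at 3 wk and from −0.92 to 0.027 at 8 wk. It moved Gja4 from −0.43 to 0.15 at 3 wk, from −0.042 to 0.34 at 8 wk and from −0.19 to 0.39 in LD. Kit moved from −0.048 to 0.20 at 8 wk, from −0.078 to 0.17 in LD and from −0.15 to 0.032 in SD. Without slide 1, with or without the block, Gja4 was 0.049 at 3 wk, −0.023 at 8 wk, 0.37 in LD and −0.072 for the SD change minus the LD change, and Kit was −0.050 in LD. The LD value of Gja4 also turned under normexp (0.0048), quantile normalization (0.022), the array median (0.0091), kept outlier spots (0.0034) and array weights (0.28), and Kit at 8 wk with outlier spots kept (−0.0030). With the block and the LD array of slide 1 at 3 wk left out, Gja4 was 0.045 at 3 wk and 0.29 in LD, and Kit −0.031 in LD. With the block and the LD array of slide 1 at 8 wk left out, Gja4 was −0.068 at 8 wk and 0.19 in LD, and Kit −0.0078 in LD. With the block and the LD array at 8 wk of slide 2, 3 or 4 left out, Kit was −0.069 in LD, −0.0091 at 8 wk and −0.0012 at 8 wk. The Kitl age difference in SD stayed below 0 under all 46 alternatives, from −1.63 to −0.51. Kit has no value under a filter on all 16 arrays. Alternatives with the block and an array or slide left out, and the fits of each probe on its own, were chosen after seeing the data.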
